A study of Mus musculus with 12 samples.

Results

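The genes described here are 8 markers of the bile duct lining and of simple epithelia, chosen by name: Spp1, Sox9, Epcam, Cd24a, Krt7, Krt19, Krt8 and Krt18. Of these 8, 6 have a row among the 12086 genes of the table used here, while Krt7 and Krt19 were not analysed here. The RNA came from whole livers of wild-type male C57BL/6 mice, killed fasted at postnatal day 84 (12 weeks). In the OO group the dam and the offspring both ate an obesogenic diet, with 10% simple carbohydrate and 20% lipid, plus sweetened condensed milk with 55% simple carbohydrate, 8% lipid and 8% protein. In CO the offspring ate that diet after a dam on standard chow (7% simple carbohydrate, 3% lipid), in OC the dam ate the obesogenic diet and the offspring chow, and in CC both ate chow. Dams stayed on their diet until weaning, litters were set to 6 pups on day 3, and sons received their own diet from day 21. The labels list 3 animals in each of the 4 groups, and the table held 11 libraries, 3 each for OO, OC and CC and 2 for CO. Libraries are called by group and number, for example OO.0, and the numbers pair nothing. Littermates are not named in those labels, so p-values measure the spread between these libraries.

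Cholangiocytes line the bile ducts, modify bile and, after injury, multiply with their progenitors in what is called the ductular reaction. They express Sox9, a transcription factor that marks the biliary lineage, the adhesion molecule Epcam, the surface glycoprotein Cd24a, and osteopontin, the secreted matrix protein encoded by Spp1. Keratins form filaments from a type II and a type I partner. Krt8 (type II) and Krt18 (type I) are the pair that hepatocytes make, and cholangiocytes add Krt7 (type II) and Krt19 (type I). Krt8 and Krt18 thus report mainly on hepatocytes in a whole liver, and osteopontin can also come from macrophages and activated stellate cells.

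Of the 4 markers of the duct lining with a row, Spp1 was well covered and the others were low. Values are scaled counts, that is, gene counts divided by 1 factor per library. Spp1 (ENSMUSG00000029304) rested on 140 to 1142 reads per library. Sox9 (ENSMUSG00000000567) rested on 8 to 66 reads, Epcam (ENSMUSG00000045394) on 4 to 52 and Cd24a (ENSMUSG00000047139) on 15 to 155. Krt8 (ENSMUSG00000049382) had 493 to 4774 reads and Krt18 (ENSMUSG00000023043) 516 to 6160. A sum over 9 hepatocyte genes lay at 48840 to 54658 scaled counts in OO, 56674 to 57250 in CO, 54932 to 65434 in OC and 56352 to 63011 in CC. Apob and Trf were its largest parts. At an adjusted p of 0.05 by limma, 0 of these 9 genes passed in OO against OC or OO against CO. Of all genes, 0.165% and 0.0414% did. In bulk tissue fewer cells of a type and less RNA per cell cannot be told apart.

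Depth ran from 3976160 reads (OO.1) to 27837607 (OO.0), with 7969056 the next highest. Several libraries stood apart from others of their group. A list of 13 exocrine pancreas genes summed to 4124 in CO.1, 6495 in OC.0 and 964.8 in CC.1, and to 7.60 to 135.8 in the other 8. Likewise 12 acute phase genes summed to 72519 in CO.1 and 46454 in OC.1, and to 15075 to 25757 in the others. Calls below that end without OC.0 and CO.1, or without OC.1 and CO.1, are given with those values too.

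The promoters of Spp1, Krt8 and Krt18 are shown because Spp1 had the largest fitted difference relative to its error among the 6 members, and because the keratin genes are partners whose levels are set side by side below. The letters are the 250 bases before the transcription start in RefSeq (GRCm38.p6), 5′ to 3′ on the gene's strand, with capitals where a searched motif matched.
Spp1: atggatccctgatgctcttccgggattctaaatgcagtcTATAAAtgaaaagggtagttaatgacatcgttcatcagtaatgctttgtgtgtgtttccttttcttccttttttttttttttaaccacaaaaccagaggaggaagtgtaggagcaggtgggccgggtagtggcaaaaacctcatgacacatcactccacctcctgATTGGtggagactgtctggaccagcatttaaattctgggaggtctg
Krt8: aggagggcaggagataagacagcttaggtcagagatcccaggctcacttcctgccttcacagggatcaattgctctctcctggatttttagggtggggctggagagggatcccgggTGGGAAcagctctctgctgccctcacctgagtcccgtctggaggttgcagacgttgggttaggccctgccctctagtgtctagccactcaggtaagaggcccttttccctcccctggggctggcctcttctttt
Krt18: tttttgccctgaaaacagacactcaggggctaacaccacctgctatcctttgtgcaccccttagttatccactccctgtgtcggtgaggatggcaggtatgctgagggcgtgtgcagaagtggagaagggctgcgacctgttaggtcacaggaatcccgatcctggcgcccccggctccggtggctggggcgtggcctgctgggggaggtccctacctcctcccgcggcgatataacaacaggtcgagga
Spp1 lies on the plus strand (chr5:104434861-104435110), Krt8 on the minus strand (chr15:102004343-102004592) and Krt18 on the plus strand (chr15:102027966-102028215), so the keratin partners are neighbours that point away from each other. The motifs were the TATA box (TATAAA), the CCAAT box (CCAAT), the GC box (GGGCGG), the AP-1 site (TGANTCA) and the core site of RBPJ, the DNA-binding protein of the Notch pathway (TGGGAA), each on both strands. In Spp1 the letters TATAAA matched 211 to 206 bases before its start, and CCAAT matched on the minus strand 46 to 42 bases before it. In Krt8 the letters TGGGAA matched 134 to 129 bases before its start, and none of the searched letters matched in the Krt18 window. These are matches of letters, and whether any is a working site was not tested. Among 32851 promoters of this length, 12.4% held TATAAA, 33.8% CCAAT, 32.7% GGGCGG, 6.75% TGANTCA and 21.6% TGGGAA. The table held promoters for 5 of the 8 members, Epcam and Krt7 being the others.

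Osteopontin was the member with the clearest difference by the diet eaten after weaning, and it narrowly missed the test. Spp1 stood at 38.1, 42.6 and 68.6 scaled counts in the OO libraries, at 46.0 and 53.3 in CO, at 24.4, 38.0 and 35.8 in OC, and at 22.2, 38.1 and 26.7 in CC. The group means were 49.8 ± 16.5 in OO (SD, n = 3), 49.6 ± 5.13 in CO (SD, n = 2), 32.8 ± 7.29 in OC and 29.0 ± 8.23 in CC (SD, n = 3 each). Both CO libraries lay above all CC libraries, as in 17% of all genes, and all OO libraries above all OC libraries, as in 6.6%. However, OO.0 and OC.1 were within 1 unit of each other and OO.0 was level with CC.1. OO.2 was the highest of all 11.

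Among the low markers, no order of the groups could be read in Sox9 and Cd24a. Epcam was lower in all OO than in all CO libraries, as were 9.48% of all genes, and OO.2 (2.12) nearly met CO.0 (2.17). Sox9 stood at 2.20, 2.21 and 1.96 in OO, at 1.5 and 1.96 in CO, at 3.17, 2.43 and 1.32 in OC, and at 1.90, 2.62 and 3.59 in CC. Its CO mean (1.73 ± 0.328) was below its CC mean (2.70 ± 0.849; SD, n = 2 and 3), with OC (2.31 ± 0.932) and OO (2.13 ± 0.143) between them, and the groups overlapped in every pair. The 9 reads of OC.2 give an exact Poisson interval of 0.604 to 2.51, and the 26 reads of CC.2 one of 2.35 to 5.26. These intervals are wide beside the range of Sox9, and the part of counting error in that range was not tested.

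Epcam, the adhesion molecule, stood at 1.74, 1.66 and 2.12 in OO, at 2.17 and 3.93 in CO, at 2.0, 1.22 and 1.17 in OC, and at 1.59, 0.748 and 2.21 in CC. CO.1 was the highest library, with 18 reads, and it is also the library with high pancreas and acute phase transcripts. Cd24a, a glycoprotein that B cells, neutrophils and red cell precursors carry as well, stood at 5.18, 4.42 and 3.92 in OO, at 6.67 and 4.15 in CO, at 5.64, 3.80 and 2.94 in OC, and at 2.38, 6.54 and 3.32 in CC. Its lowest and second highest values were both CC libraries, and their exact Poisson intervals, 1.33 to 3.92 in CC.0 and 4.56 to 9.10 in CC.1, did not overlap.

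Among the keratins of hepatocytes, Krt8 lay within a narrow range in chow-fed offspring. Krt8 stood at 159.4, 136.3 and 265.2 in OO, at 145.2 and 191.2 in CO, at 147.1, 161.6 and 162.8 in OC, and at 153.8, 148.5 and 154.8 in CC. Its SD was 52.3 over the 5 libraries of obesogenic-fed offspring and 6.50 over the 6 of chow-fed offspring, a difference in spread that was not tested. Only OO.2 lay above 200 scaled counts of Krt8, and without it the SD in obesogenic-fed offspring was 24.1. Krt18 stood at 205.7, 142.7 and 197.1 in OO, at 171.5 and 242.3 in CO, at 143.0, 173.8 and 162.5 in OC, and at 164.4, 170.5 and 202.0 in CC. Its group means were 181.8 ± 34.2 in OO, 206.9 ± 50.1 in CO (n = 2), 159.8 ± 15.6 in OC and 179.0 ± 20.2 in CC (SD, n = 3 for the rest), and the groups overlapped in every pair. The SD of Krt18 was 37.4 in obesogenic-fed and 19.3 in chow-fed offspring.

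**Figure D1:**
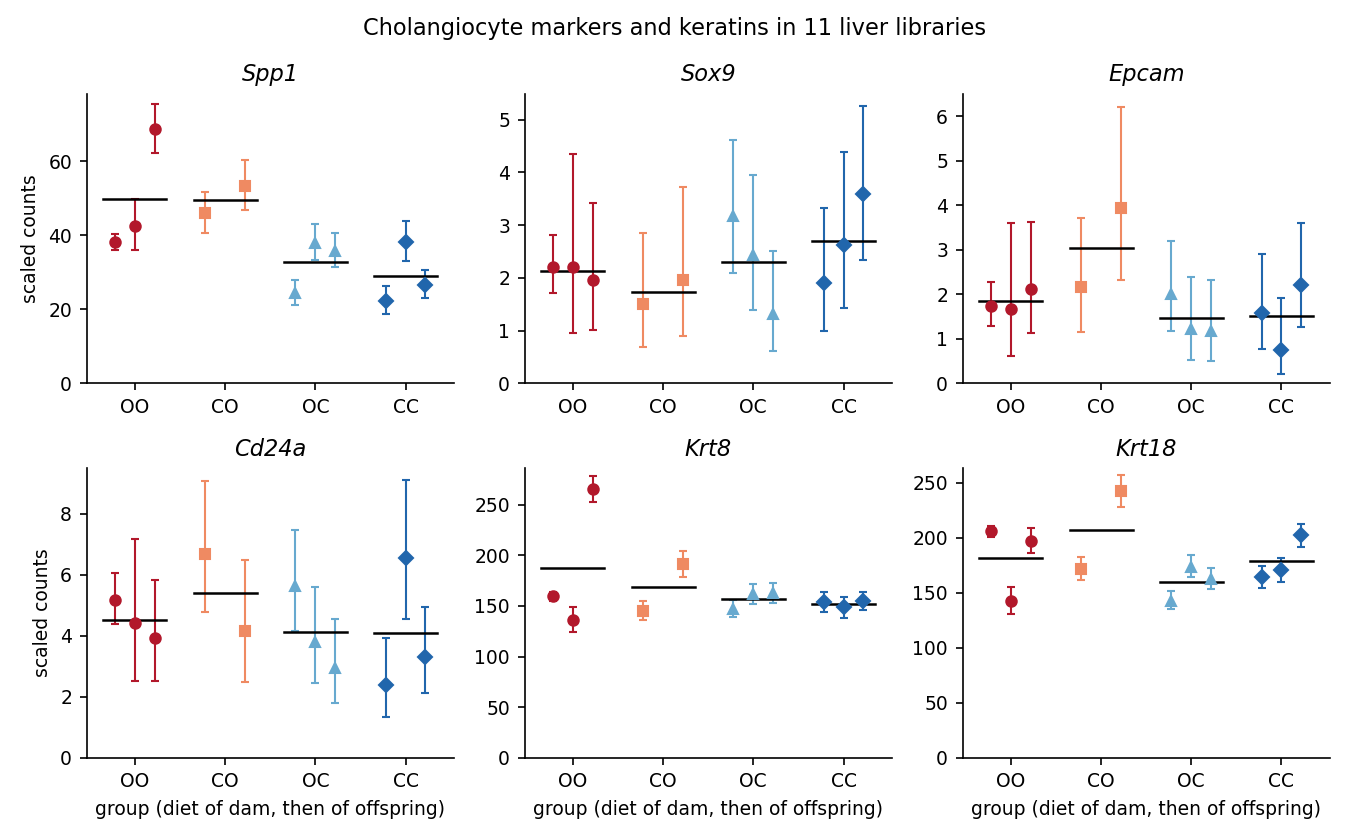
Scaled counts of the 6 measured members (one panel each, axis from 0) in every library, grouped as OO, CO, OC and CC. Points are libraries, their bars exact Poisson 95% intervals of the reads (counting error only), and black lines group means. Spp1 separates OO from OC and CO from CC, as do 6.6% and 17% of all genes in that direction. The other 5 genes overlap in both.

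The diet eaten after weaning was read in sons of chow-fed dams (CO against CC), in sons of obesogenic-fed dams (OO against OC) and as the average of both. By limma, with Benjamini-Hochberg adjustment over all 12086 genes, 0 of the 6 members passed an adjusted p of 0.05 in any of the 3, where 1.79%, 0.165% and 3.96% of all genes did. At an unadjusted p under 0.05 there were 2 members in CO against CC, 1 in OO against OC and 2 in the average, against 16.8%, 8.01% and 19.4% of all genes, so these counts are near the background. DESeq2 called 1 member in the average, Spp1, while edgeR and voom called 0 in each of the 3. The median of the 6 log2 fold changes was 0.32 for CO against CC, 0.18 for OO against OC and 0.24 for the average. Over all genes the medians were within 0.01 of 0. The members were chosen with earlier results of these data known, so this contrast is not a test.

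For Spp1 the average difference was 0.69 on the log2 scale (SE 0.19, 95% interval 0.28 to 1.1), a 1.61-fold higher value in obesogenic-fed offspring, with an adjusted p of 0.0652 by limma. It was 0.80 (SE 0.28) for CO against CC, adjusted p 0.179, and 0.57 (SE 0.25) for OO against OC, adjusted p 0.592. These differed by less than their errors, with an interaction of -0.22 (SE 0.38) and an adjusted p of 0.974. Non-overlapping, higher values as in Spp1 were found in 17% of all genes for CO against CC and in 6.6% for OO against OC. The side of the threshold depended on 1 library, since limma gave an adjusted p of 0.0367 without CC.1 (0.79 on the log2 scale). CC.1 is the library with the third highest pancreas sum, and the part of this in the Spp1 value was not tested. DESeq2 gave an adjusted p of 0.0152. Without OC.0 and CO.1 the average was 0.54 and the adjusted p 0.305, and without OC.1 and CO.1 it was 0.69 with an adjusted p of 0.173. The lowest value with a single library left out was 0.56, without OO.2.

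Epcam had the same direction with a wider error. Its log2 difference was 0.84 (SE 0.37) for CO against CC, with an adjusted p of 0.285 by limma, and 0.27 (SE 0.34) for OO against OC, with 0.897. The average was 0.56 (SE 0.25, 95% interval 0.01 to 1.11) with an adjusted p of 0.252. Without CO.1 it was 0.37 for the average and 0.48 for CO against CC, where CO is then the single library CO.0 and is assumed to vary like the other groups.

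Sox9, the transcription factor of the biliary lineage, was the only member with a negative average, at -0.27 (SE 0.22, 95% interval -0.76 to 0.22) with an adjusted p of 0.566 by limma. It was -0.50 (SE 0.34) for CO against CC and -0.04 (SE 0.30) for OO against OC, with adjusted p-values of 0.483 and 0.988. Cd24a averaged 0.29 (95% interval -0.25 to 0.84) with an adjusted p of 0.570. Both intervals reach to either side of 0. These genes rest on 8 to 155 reads a library, and the part of depth in the width of the intervals was not tested.

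The keratin averages were small and better bounded. Krt8 differed by 0.16 on the log2 scale (95% interval -0.17 to 0.49, limma adjusted p 0.619), and Krt18 by 0.18 (95% interval -0.10 to 0.46) with 0.480. The upper bounds are 1.41-fold and 1.38-fold, so that larger average rises of either keratin lie outside these intervals. Both rest on single libraries: without OO.2 the Krt8 average was 0.02, and without CO.1 the Krt18 average was 0.06. In the simple comparisons Krt8 stood at 0.13 for CO against CC and 0.19 for OO against OC, and Krt18 at 0.19 and 0.17.

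**Figure D2:**
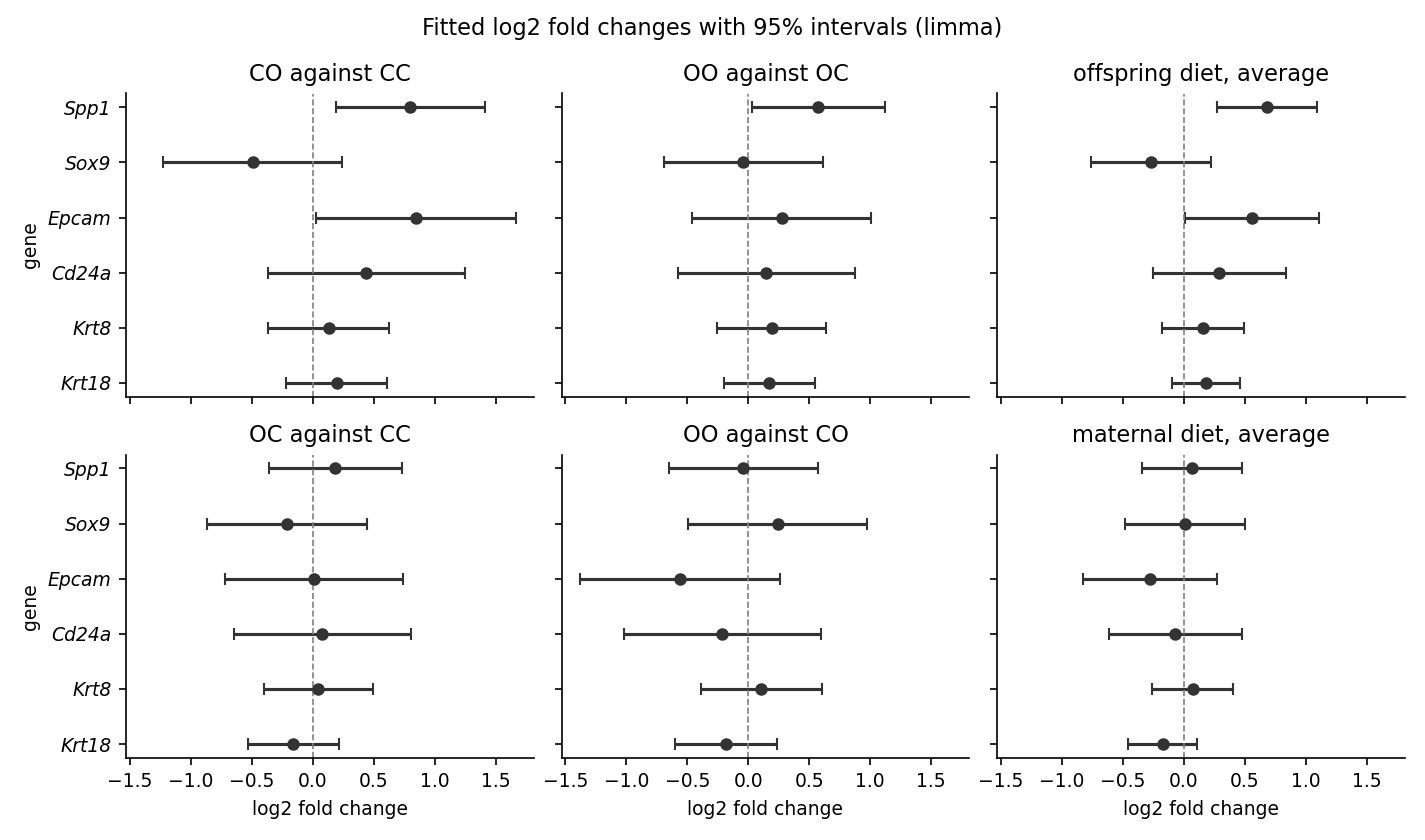
Fitted log2 fold changes of the 6 members (rows) with 95% intervals from limma for the offspring diet (top row: CO against CC, OO against OC, their average) and the maternal diet (bottom row: OC against CC, OO against CO, their average); the dashed line marks no difference. The Spp1 interval lies above 0 in all 3 offspring diet panels, and every interval of the maternal diet spans 0.

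The maternal diet was read in chow-fed sons (OC against CC), in obesogenic-fed sons (OO against CO) and as their average. Again 0 of 6 members passed by limma, at percentages of 0%, 0.0414% and 0.0331% of all genes called, and 0 of 6 were called by edgeR, DESeq2 or voom. An unadjusted p under 0.05 was reached by 0 of 6 in each, against 5.26%, 5.92% and 6.13% of all genes. Over all genes in OC against CC, limma, edgeR, DESeq2 and voom each called 0, while 636 genes had an unadjusted p under 0.05 by limma. Spp1 differed by 0.18 (95% interval -0.36 to 0.73) for OC against CC and by -0.04 (-0.65 to 0.57) for OO against CO, with a maternal average of 0.07 and an adjusted p of 0.963. Krt18 was -0.16 and -0.18 in these comparisons, with an average of -0.17 (95% interval -0.45 to 0.11) and an adjusted p of 0.843, and Krt8 was 0.04 and 0.11. Epcam was lower in all OO than in all CO libraries, by 0.56 on the log2 scale (SE 0.37, adjusted p 0.878 by limma), where 9.48% of genes were lower with no overlap. The margin was narrow, with OO.2 at 2.12 and CO.0 at 2.17 scaled counts of Epcam on 13 reads each. Sox9 averaged 0.01 and Cd24a -0.07. For the interaction of both diets, which 0.0331% of genes passed, 0 of 6 members passed by limma, edgeR, DESeq2 or voom, 0 had an unadjusted p under 0.05 (4.56% of all genes), and values ran from -0.57 (Epcam) to 0.46 (Sox9).

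Krt8 and Krt18 need each other to form filaments, and their values were set against each other in each library. Relative to its mean over the 11 libraries, the ratio of Krt8 to Krt18 was 0.843, 1.04 and 1.46 in OO, 0.920 and 0.858 in CO, 1.12, 1.01 and 1.09 in OC, and 1.02, 0.947 and 0.833 in CC. OO.2 was the library with an excess of Krt8, and the other 10 lay between 0.833 and 1.12. Over the 11 libraries Pearson's r of the log2 values was 0.56 (permutation p 0.0754) and Spearman's rho 0.62 (permutation p 0.0475). With Benjamini-Hochberg adjustment over 15 pairs of members these gave adjusted p-values of 0.377 and 0.571. Without CO.1 and OO.2, the libraries farthest from the Krt8 median, r was 0.58, and with group means removed 0.63 (exact permutation p 0.255 over 432 rearrangements). In OO.2 the stellate cell and fibroblast list also had its highest sum, 643.3, against 394.7 to 513.1 in the other libraries, and its part in the Krt8 value was not tested.

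**Figure D3:**
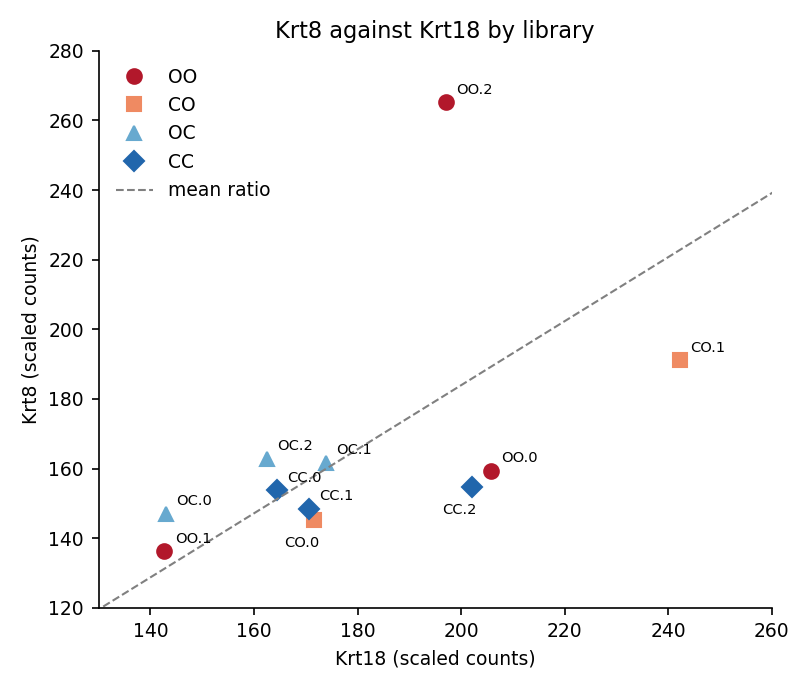
Krt8 against Krt18 in scaled counts, 1 point per library, with colours and symbols for OO, CO, OC and CC and axes that do not begin at 0. The dashed line is the mean ratio; OO.2 lies far above it, and CO.1, OO.0 and CC.2 lie below it.

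Of the 15 pairs of members, 9 had a positive r and r ran from -0.42 (Spp1 with Sox9) to 0.64 (Spp1 with Krt8), and 0 passed after adjustment. The lowest adjusted permutation p for Pearson's r was 0.377, and 1 pair had an unadjusted p under 0.05, Spp1 with Krt8 (0.0288). For this pair rho was 0.24 (permutation p 0.484). Without CC.0 and OO.2, the libraries farthest from the Spp1 median, r was 0.35, so the pooled relation rests on those libraries, and with group means removed it was 0.64 (exact permutation p 0.0556 over 432 rearrangements). Spp1 with Epcam gave 0.27 and Sox9 with Epcam 0.00. Among the 4 duct markers alone, r ran from -0.42 to 0.30. Some libraries share pancreas or acute phase transcripts, and the part of these in the correlations was not tested.

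The genes whose library pattern was most like each member were found by the root mean square difference of centred log2 values over 11 libraries, among 9326 genes with a mean of at least 5. For Spp1, whose own root mean square deviation was 0.455, they were the claudin Cldn2 (0.172), the reticulon Rtn4 (0.180) and the scaffold gene Slc9a3r1 (0.183). Krt8 (own 0.251) was nearest to Pfas (0.0998), Ctso (0.101) and the tetraspanin Cd151 (0.106), and Krt18 (own 0.220) to Minpp1 (0.0947), Rgp1 (0.0956) and Snu13 (0.101). For the low members the nearest were Endov, Zfyve19 and Pik3c2b for Sox9 (0.165 to 0.185), Dcbld1, Ccl6 and Nav2 for Epcam (0.220 to 0.257), and Arhgap4, Nox4 and Nt5dc3 for Cd24a (0.180 to 0.240). Sox9, Epcam and Cd24a lie below that mean and so were not candidates themselves.

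Other genes of the duct lining were taken from a list of 23, of which 16 have a row. By limma 0 of 16 passed in any comparison, and 7 had an unadjusted p under 0.05 in the average for the offspring diet, where 19.4% of all genes did. Of these 7, 5 were higher (Krt23, Wfdc2, Tspan8, Bicc1 and Pkhd1) and 2 lower. The lower ones were the water channel Aqp1, at -0.24 (SE 0.10), and the sodium pump subunit Atp1b1, at -0.31 (SE 0.13), with adjusted p-values of 0.213 and 0.206 by limma. The 16 had a median log2 difference of 0.30 with 12 above 0, against -0.000781 for all genes. This list too was chosen with earlier results of these data known. DESeq2 and edgeR each called 1, Krt23, in the average, and voom 0. Bicc1, an RNA-binding protein whose loss gives cysts in kidney, stood at 6.48, 7.74 and 9.15 in OO, at 6.83 and 9.39 in CO, at 7.05, 4.71 and 4.99 in OC, and at 3.80, 4.67 and 5.11 in CC. Its average was 0.61 (SE 0.16) with an adjusted p of 0.0545 by limma, just short of the threshold, as for Spp1. Pkhd1, the fibrocystin gene whose loss gives cystic bile ducts, averaged 0.44 (SE 0.13) with an adjusted p of 0.0862. It stood at 22.6, 22.4 and 36.1 in OO, at 21.8 and 24.2 in CO, at 20.0, 18.1 and 18.6 in OC, and at 18.9, 17.6 and 15.1 in CC, so all 5 libraries of obesogenic-fed offspring lay above all 6 of chow-fed offspring, as in 2.08% of all genes.

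Krt23, a type I keratin known as a stress response gene of liver, had the largest fitted difference of the list, 1.79 (SE 0.59, limma adjusted p 0.116). It stood at 13.9, 5.81 and 7.19 in OO, at 17.8 and 0.655 in CO, at 0.940, 0.760 and 2.20 in OC, and at 1.27, 0.935 and 2.63 in CC. CO.1 was the lowest of all 11 libraries and CO.0 the highest, so the CO libraries spanned the whole range. The CO.1 value is the floor of 3 reads in that library. The next lowest were OC.1, at 0.760 beside its own floor of 0.456, and CC.1, at 0.935 beside a floor of 0.561. The summed level of the 16 genes ran from 399.5 to 417.0 in OO, 346.7 to 390.7 in CO, 366.4 to 388.8 in OC and 358.6 to 404.3 in CC. Aqp1 was the largest part of this sum in every library, from 94.7 in CO.1 to 159.9 in CC.1.

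**Figure D4:**
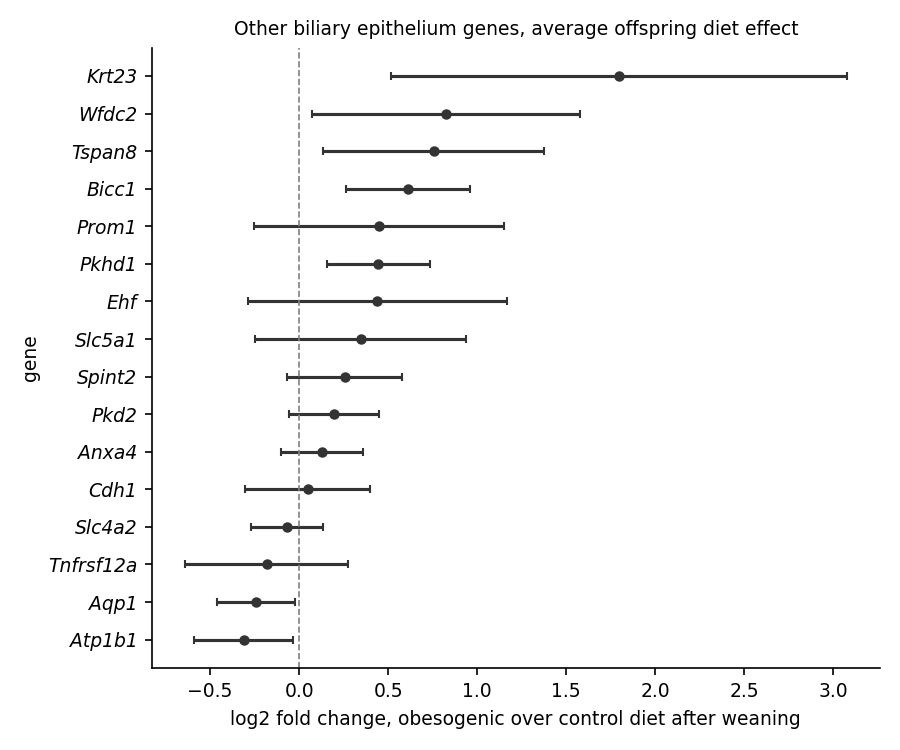
Average log2 fold change of the offspring diet (obesogenic over control diet after weaning) with 95% intervals from limma for the 16 measured genes of the other biliary list, ordered by size. Of the 16, 12 lie above 0, with Krt23 at 1.79 the farthest, and Aqp1 and Atp1b1 have intervals below 0.

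Pathways that act on duct cells were described in the same way for the average offspring diet. Over all genes, 3.96% were called by limma in this average and 19.4% had an unadjusted p under 0.05. Notch signalling specifies biliary cells and turns on Sox9: of 12 measured genes 0 passed by limma, edgeR or voom and 1 by DESeq2, Jag1, and 4 had an unadjusted p under 0.05, with a median of 0.02. The ligand Jag1 was at 0.65 (adjusted p 0.0758 by limma), the ligand Dll1 at -0.39 (0.216) and the transcription factor Sox4 at 0.42 (0.219). YAP drives duct genes when hepatocytes change fate: of 10 measured genes 1 was higher by limma, Axl, 0 lower, and the median was 0.02. DESeq2 called Axl and Wwtr1 higher, while edgeR and voom called 0, with adjusted p-values for Axl of 0.0553 and 0.0503. Axl is a receptor kinase and stood at 39.3, 44.8 and 40.8 in OO, 38.2 and 43.9 in CO, 25.0, 41.1 and 26.7 in OC, and 22.5, 27.5 and 30.1 in CC. Its difference was 0.54, for which limma gave an adjusted p of 0.0485, and the call ended with any single library left out except OC.1 (0.163 without CO.1). Leaving out both OC.0 and CO.1 gave 0.260.

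Osteopontin acts through integrins and Cd44 and is cut by thrombin (F2) and matrix proteases. The counts here are for the average offspring diet, with 3.96% of all genes called by limma and 19.4% at an unadjusted p under 0.05. The 10 measured genes were integrin chains, Cd44 and F2, with no matrix protease among them. Of these 10, 0 passed by limma, edgeR or voom and 2 had an unadjusted p under 0.05. DESeq2 called Itga8 higher and Itga5 lower, and the list median was 0.15. The integrin chains Itga8 and Itga5 were at 0.68 (adjusted p 0.0820 by limma) and -0.63 (0.0652), and Cd44 at 0.45 (0.262). Another list joined proteins that tie keratin filaments to junctions and to the cytoskeleton with vimentin and the nuclear lamins. Of its 12 measured genes 0 passed by any of the 4 tools, 1 had an unadjusted p under 0.05, and the median was 0.04. The plakophilin Pkp2 was at -0.21 (adjusted p 0.170 by limma), the linker plectin (Plec) at 0.23 (0.337) and vimentin (Vim) at 0.27 (0.361).

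Markers of other cells that make osteopontin are given beside it. For the average offspring diet, limma called 3.96% of all genes, and 19.4% had an unadjusted p under 0.05. For CO against CC it called 1.79%. Of 12 macrophage genes by limma, 1 was higher, 1 lower and the median was 0.14, and the list summed to 519.0 to 532.4 in OO, 485.1 to 487.9 in CO, 369.2 to 541.2 in OC and 319.4 to 410.6 in CC. Mpeg1, a pore-forming protein of macrophages, was higher by 0.92 (adjusted p 0.0102 by limma, 0.103 without OC.0 and CO.1), and by 1.18 for CO against CC (0.0358, not called without CC.0, CC.1, CC.2 or CO.1, the last at 0.220). For CO against CC the adjusted p of Mpeg1 was 0.248 without OC.0 and CO.1 and 0.164 without OC.1 and CO.1. Trem2, a receptor of lipid-handling macrophages that often express Spp1, was lower by 1.15 on the log2 scale (adjusted p 0.0360 by limma, 0.0907 without CC.2, and not called without CC.1, CO.0, CO.1, OC.0, OC.2, OO.0 or OO.1). Its adjusted p was 0.175 without OC.0 and CO.1 and 0.0836 without OC.1 and CO.1. Trem2 stood at 1.57, 1.11 and 3.59 in OO, 0.667 and 0.873 in CO, 4.82, 2.89 and 3.67 in OC, and 2.06, 3.74 and 3.59 in CC. It was thus a low gene, and the alternative with a minimum value of 5 left it out. Of 10 stellate cell and fibroblast genes 0 passed by any of the 4 tools and 5 had an unadjusted p under 0.05, with a median of 0.29. The collagens Col3a1, Col1a2 and Col1a1 were at 1.04, 0.66 and 1.01 (adjusted p 0.0962, 0.148 and 0.179 by limma), and the list summed to 450.4 to 643.3 in OO, 488.5 to 497.1 in CO, 419.1 to 513.1 in OC and 394.7 to 402.6 in CC. The part of macrophages and stellate cells in the Spp1 values was not tested.

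**Figure D5:**
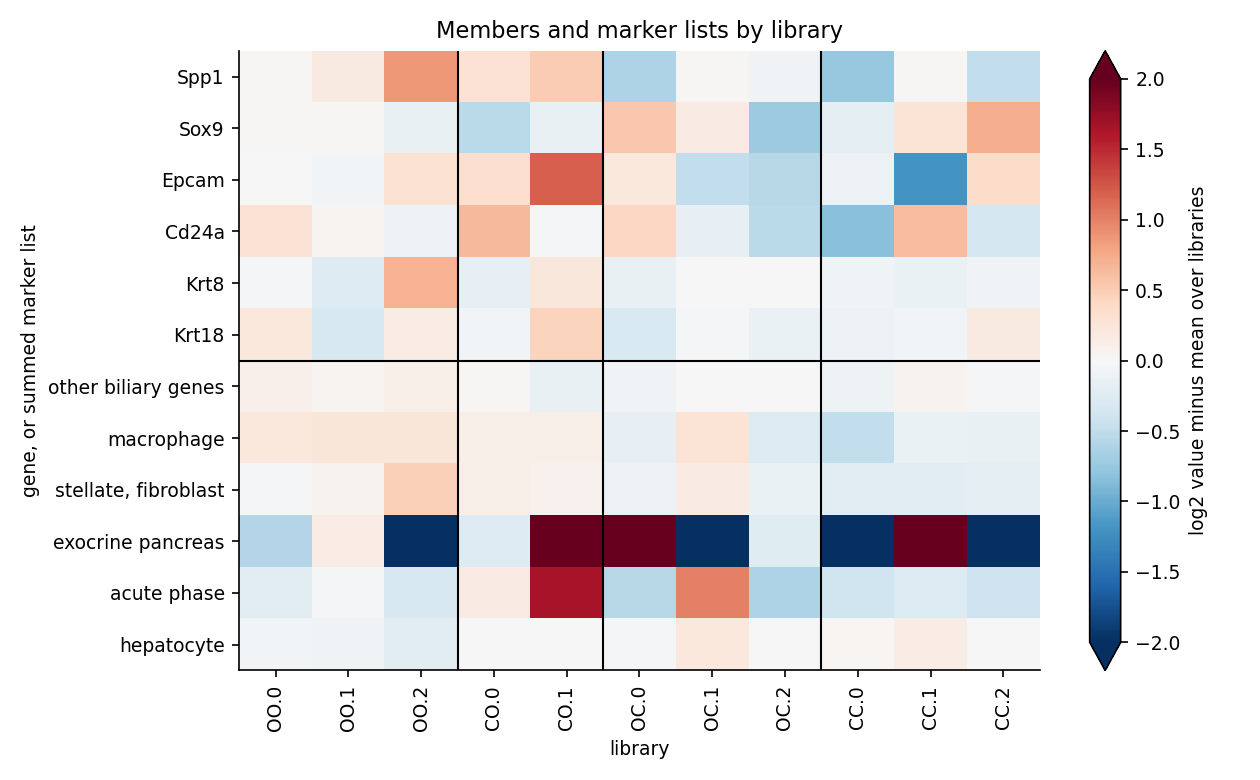
Log2 values of the 6 members (upper rows) and log2 sums of 6 marker lists (lower rows) minus their mean over the 11 libraries, by library from OO to CC; red is above and blue below the mean, and the scale ends at 2. The exocrine pancreas row is above the scale in CO.1, OC.0 and CC.1, and Spp1, Krt8 and the stellate row are each highest in OO.2.

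Cells of other origin carry some of these markers too. In the average, 3.96% of all genes were called by limma and 19.4% had an unadjusted p under 0.05. S100a8, called below, was a low gene. It stood at 1.67, 2.21 and 1.96 in OO and at 2.83 and 8.95 in CO. In OC it was at 0.587, 0.760 and 1.32, and in CC at 0.951, 0.561 and 0.276. Of these, CC.1 was at the floor of 3 reads and CC.2 below it. A minimum value of 5 left this gene out. Of 7 measured genes of B cells, neutrophils and red cell precursors, which carry Cd24a, 1 was higher by limma, S100a8, with a median of 0.04; S100a8 was at 1.62 (adjusted p 0.0128 by limma, and 0.0574 without CO.1) and at 2.40 for CO against CC (0.0283, not called without CC.0, CC.2 or CO.1, in a fit of those groups only, or by voom). Without OC.0 and CO.1 the adjusted p of S100a8 was 0.114 in the average and 0.206 for CO against CC, and without OC.1 and CO.1 it was 0.0813 and 0.203. Of 3 intestinal genes 1 was higher by limma, the fatty acid binding protein Fabp2, which liver also makes, at 0.79 (adjusted p 0.0280, 0.0883 without CO.1, and not called without CC.0, CC.1, CO.0, OC.0, OC.1 or OO.0), with a median of 0.79. Its adjusted p was 0.142 without OC.0 and CO.1 and 0.126 without OC.1 and CO.1. Of 9 hepatocyte genes 1 was lower by limma, the tyrosine aminotransferase Tat, by 1.23 on the log2 scale (adjusted p 0.0149, 0.0868 without OC.0 and CO.1, and 0.0617 without OC.1 and CO.1), with a median of -0.12. Among 13 pancreas genes, whose ducts also express Sox9, Epcam and keratins, 0 passed by any of the 4 tools and 0 had an unadjusted p under 0.05, with a median of 0.77; Cpb1, Prss2 and Cel were at 1.09, 1.0 and 1.0. Of 5 skeletal muscle genes 0 passed by any of the 4 tools and 0 had an unadjusted p under 0.05, with a median of -0.14 and Acta1, Tnnt3 and Ckm at -0.49, -0.23 and -0.14. Of 12 acute phase genes 0 passed by any of the 4 tools in the average and 2 had an unadjusted p under 0.05, with a median of 0.60 and the fibrinogen chains Fgg, Fga and Fgb at 0.60, 0.57 and 0.54. The part of pancreas tissue in the Epcam values of CO.1 (3.93 scaled counts), OC.0 (2.0) and CC.1 (0.748) was not tested.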

How the data were processed

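RNA of 12 labelled liver samples was made into TruSeq libraries, per the labels' protocols. The table the authors deposited holds 11 columns of a signal, which the values show to be gene counts over a library factor: 95.7% to 97.3% of values in each library divided evenly by the value of 1 read (tolerance 0.01), and a floor of 3 reads lay between 0.100 and 0.829. Columns came from 1 alignment file each, per the file headers. Bowtie 1.2.3 and mm8 are named in the submitters' processing notes; of the counter, annotation, strand setting and scaling, none is given in the sources used here. Column names gave the group of a library, not its sample. The overlapping gene models Gm42793 (Spp1) and Gm36026 (Krt8) and the pseudogene Krt8-ps exist in the GENCODE annotation, and how reads were split between them is not known.

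Symbols matched 11965 of 12086 identifiers. The test was limma 3.58.1 (R 4.3.3) with an intensity trend on log2(value + 0.5), 1 mean per group over 11 libraries (7 residual and 4.66 prior degrees of freedom), with Benjamini-Hochberg adjustment at 0.05 over all genes; fold changes on this scale understate low genes. The filter, a value of 1 in at least 3 libraries, left out 0 genes. The design had assumed CPM and 12 samples. Alternatives were edgeR 4.0.16, DESeq2 1.42.0 and voom on the recovered reads, pseudocounts of 0.1 and 2, median-of-ratios scaling, a minimum value of 5 (10238 genes), only the groups compared, each library left out and 2 pairs left out; the scripts were tested on simulated data. Correlations used 100000 permutations. Poisson intervals (95%) and the floor cover counting error only. The 8 members and 13 other gene lists were chosen with earlier results of these data known. All members with a row are named; from each other list, every gene past the test, otherwise the 3 with the smallest p for the average offspring diet; 1 gene of the other biliary list is not reported here and stays out of that list's counts, and Aqp1, Atp1b1, Wfdc2, Tspan8 and Wwtr1 were named after their values were seen. Promoters are from RefSeq (GRCm38.p6), a build other than that of the alignment.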

Additional observations from a re-analysis of the deposited data

How the results depend on the processing

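Of 42 fitted member values (6 genes in 7 comparisons), 892 alternatives gave 830 with the same direction and side of the threshold, 60 with the opposite sign (in 20 values, all within 0.29 of 0 in size) and 2 past the threshold, both for the average offspring diet effect on Spp1: DESeq2 (0.69, adjusted p 0.0152) and limma without CC.1 (0.79, adjusted p 0.0367).

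Without OC.0 and CO.1 the sign turned for Sox9 in OO against OC (0.18) and the maternal average (-0.023), Spp1 in OO against CO (0.065), Epcam and Cd24a in OC against CC (-0.18 and -0.15), Krt8 (-0.069) and Krt18 (-0.055) in CO against CC, and Krt18 in OO against CO (0.066) and the interaction (0.15). Without OC.1 and CO.1 it turned for Sox9 in OO against OC (0.021), Spp1 in OO against CO (0.065) and the interaction (0.000177), Krt8 (-0.069) and Krt18 (-0.055) in CO against CC, and Krt18 in OO against CO (0.066) and the interaction (0.29). Epcam in OC against CC turned by edgeR (-0.069), DESeq2 (-0.060), voom (-0.0055) and with a pseudocount of 2 (-0.0079), and Spp1 in OO against CO by edgeR (0.000702). All of these had an adjusted p over 0.9.

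With each library left out in turn, the values that turned sign ran as follows on the log2 scale. In CO against CC, Krt8 ran from -0.069 to 0.33 and Krt18 from -0.055 to 0.44. In OO against OC, Sox9 ran from -0.32 to 0.18, Cd24a from -0.045 to 0.37 and Krt8 from -0.091 to 0.39. In OC against CC, Sox9 ran from -0.44 to 0.068, Epcam from -0.30 to 0.26 and Cd24a from -0.21 to 0.44. In OO against CO, Spp1 ran from -0.29 to 0.13, Cd24a from -0.52 to 0.10, Krt8 from -0.18 to 0.30 and Krt18 from -0.43 to 0.066. In the maternal average, Sox9 ran from -0.098 to 0.15, Spp1 from -0.055 to 0.18, Cd24a from -0.22 to 0.11 and Krt8 from -0.066 to 0.17. In the interaction, Cd24a ran from -0.65 to 0.023, Krt8 from -0.22 to 0.26 and Krt18 from -0.27 to 0.23.

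Counts of genes called over the whole table, the background of the members, moved more. For CO against CC limma called 216, edgeR 156, DESeq2 456, voom 104, a fit of those groups only 92, the fit without OC.0 and CO.1 17 and that without OC.1 and CO.1 14. With single libraries left out the count ran from 19 (CC.2) to 233, at 23 with CC.0 left out, 29 with CO.1 and 124 with OC.2 left out. For OO against OC the counts were 20 by limma, 106 by DESeq2, 31 by voom, 12 in a fit of those groups only, 12 without OC.0 and CO.1 and 35 without OC.1 and CO.1, and 8 (OC.0) to 30 with single libraries left out, with 10 to 13 without OC.2, OO.0, CC.2 or OO.2. For OO against CO they were 5 by limma, 16 by DESeq2 and 4 to 20 (CO.0), and for OC against CC 0 to 2 (CC.1). The average offspring diet effect had 479 by limma, 504 by edgeR, 770 by DESeq2, 134 without OC.0 and CO.1, 250 without OC.1 and CO.1, and 253 (CC.0) to 483, with 256 to 310 without CC.2, CO.1, OC.0 or OO.0. The maternal average had 4 by limma and 8 by DESeq2.

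The cause of these changes was not tested. A CO group reduced to 1 library is assumed to vary like the others. No paired analysis was possible because the columns carry no replicate numbers that match those of the samples. Sox9 and Epcam rest on 4 to 66 reads a library, so counting error is part of their spread, and whether depth or the number of libraries limits their calls was not tested.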
